A study of Mus musculus with 18 samples.

Results

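The change in gene expression of the wild-type mouse ovary between E15.5 and E17.5 (embryonic days) was measured on 6 of the 18 arrays of a series on Elavl2, whose protein binds RNA and is related to fly ELAV. The 6 arrays were those whose titles give wild type (WT) and one of these days, 3 per day. The other arrays held WT ovaries of postnatal day 0 (P0) and Elavl2 knockout (KO) ovaries of all 3 stages, again 3 per group. They entered the model as a source of spread, in the estimate of the scan run effect described below and, where stated, as a comparison. Total RNA of whole XX gonads was copied into Cy3-labelled cRNA and read on 1-colour Agilent arrays. Strain, litter and the deleted stretch of Elavl2 were not given in the sources used here. The labels call every sample "mixed" without saying what was mixed, and they do not say that replicates came from separate animals, so p-values cover the spread between these samples, which may be technical.

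In the fetal mouse ovary, germ cells stop dividing by mitosis, switch on the retinoic acid target Stra8 and enter meiotic prophase, in which homologous chromosomes pair along the synaptonemal complex and exchange DNA. They then arrest in diplotene, while a network of oocyte transcription factors, Figla, Nobox and Lhx8 among them, starts the genes for the zona pellucida and for proteins stored for the early embryo. Pregranulosa cells, supporting cells that depend on WNT4, RSPO1 and FOXL2, surround the oocytes and later become the granulosa cells of follicles. In bulk tissue, fewer cells of a type and less RNA per cell cannot be told apart.

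Each level is a log2 signal minus the 75th percentile of the same array, so a difference of 1 is a doubling. "Well above background" is the scanner software's own flag. Between 66.1% and 74.7% of probes lay well above background on the 6 arrays, and the number of arrays limits the precision. Replicates correlated across genes at r = 0.9927 to 0.9948 at E15.5 and at 0.9796 to 0.9937 at E17.5. All E15.5 arrays and E17.5 replicate 3 belonged to 1 scan run (run A), and E17.5 replicates 1 and 2 to another (run B). Within WT, stage and slide cannot be told apart, because the E15.5 arrays shared slide 1 and no E17.5 array lay on it; E17.5 replicate 3 lay on slide 3, away from E17.5 replicates 1 and 2 on the second principal component (23.86 against -31.49 and -37.32). Each change was estimated with a run term and again without it. The run effect was taken as the same in all groups, and only the E17.5 groups spanned both runs. The E17.5 KO arrays therefore helped to set it and moved the printed WT changes. For M1ap the change with the run term was -3.68. Against the E15.5 mean, its WT arrays gave -4.09 in run A and -3.93 in run B. At E17.5 the run A arrays of both genotypes lay on slide 3 and the run B arrays on slides 4 and 5. Run and slide 3 cannot be told apart there, and neither fit corrects for slide. Below, a gene "rose" or "fell" where both estimates had a Benjamini-Hochberg adjusted p under 0.05 and the same sign, and the value printed is the log2 change of the fit with the run term, with its standard error (SE). Changes are read against the median over all genes, which was 0.03 with the run term, -0.02 without it and -0.176 when arrays were scaled by their medians instead.

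Of 19292 genes tested with limma, 2953 (15.3%) were higher and 2139 (11.1%) lower at E17.5 with the run term. Without it, 2493 (12.9%) were higher and 2670 (13.8%) lower. Both estimates called 1772 genes higher (9.19%) and 1636 lower (8.48%), and none was called in opposite directions. Those 2 shares are the background against which each list of genes below is read. Of the 1772 genes, 1763 had no overlap between the stages, and of the 1636, 1628 had none. These genes had already been called, which favours separated groups, and the share without overlap over all genes was not counted. Lack of overlap was also part of the rule for naming genes, so below it describes a gene and adds no support. Among genes well above background on all 6 arrays, 129 rose by 4-fold or more in both fits and 14 by 16-fold or more, against 35 and 3 that fell as far. Scaling by array medians gave 5718 calls of which 28.0% were higher, against 58.0% of 5092 with the 75th percentile and 48.3% of 5163 without the run term. E17.5 replicate 3 was the only E17.5 WT array of run A. Without that array 1049 genes were called with the run term. With a term for slide 3 beside the run 839 were called. Of the 275 genes named in the text or its tables, 62 were not called in both fits, and 145 lost their run-term call without that array. With slide 3 and run terms 151 lost it, so many run-term calls given below rest on that array. Without that array only the E17.5 KO arrays set the run term, a limit of every run-term count below that leaves it out. Without a run term and without that array, E17.5 replicates 1 and 2 against E15.5 gave 4671 calls. In that fit 38 of the 275 genes lost their call and 1 called gene changed sign.

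**Figure D1:**
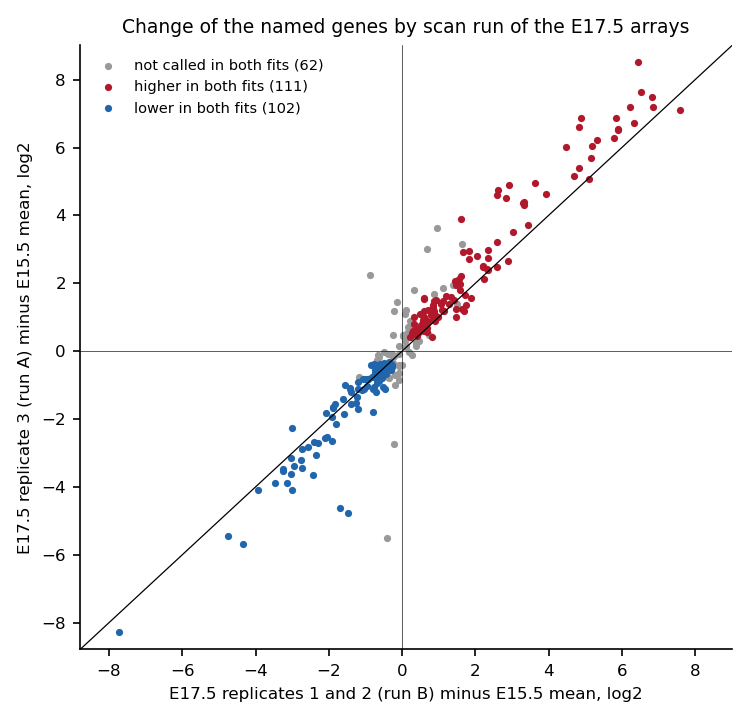
Change of the 275 genes given in the text or its tables, as E17.5 replicates 1 and 2 (run B, x axis) or E17.5 replicate 3 (run A, y axis) minus the mean of the 3 E15.5 arrays, both in log2 units. Colours show genes higher (111), lower (102) or not called (62) in both fits, and the line marks equal change. The E15.5 arrays are shared by both axes, so the closeness to the line is a description; Dppa3 lies above it, at 6.27 on the y axis and 5.78 on the x axis. Genes not well above background at 1 stage are drawn at their measured signal.

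The meiotic entry gene Stra8, which switches on the meiotic programme in response to retinoic acid, had the largest fall among genes called in both fits. Its probe (mm9, chromosome 6, 34889231 to 34889290) read 4.90, 4.32 and 4.79 at E15.5 and -2.46, -3.67 and -3.61 at E17.5. All E17.5 arrays lay far below all E15.5 arrays, and the change was -7.70 (SE 0.52, adjusted p = 3.27e-06), or -7.92 without the run term. At P0 it stood at -4.28, -3.71 and -3.80, below its E17.5 values. Of 13 measured genes of retinoic acid supply and meiotic entry, 3 rose and 1 fell, Stra8 being the one that fell. Cyp26b1, whose enzyme degrades retinoic acid, rose by 0.82 (adjusted p = 0.0063), and the retinol carrier gene Rbp4 rose by 1.10 (adjusted p = 0.0089). Aldh1a1 and Aldh1a2, whose enzymes make retinoic acid, gave 0.10 and -0.35 (adjusted p = 0.665 and 0.0362, the latter 0.184 without the run term). The retinol dehydrogenase gene Rdh10 rose by 0.38, but another of its 3 probes was called lower.

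Genes of the meiotic chromosome axis and of the synaptonemal complex mostly fell. Of 11 measured, 7 fell and 1 rose, with a median log2 change of -0.68 against 0.03 over all genes. Hormad2, an axis protein that marks unsynapsed chromosomes, read 0.09, 0.09 and 0.01 at E15.5 and -1.93, -1.59 and -1.48 at E17.5. Its groups did not overlap, and it fell by 1.52 (SE 0.12, adjusted p = 7.75e-06). Tex12, of the central element, fell by 1.07, Hormad1 by 0.67, Syce3 by 0.68 and Syce2 by 0.58. The axis gene Sycp2 fell by 1.29 at its brightest probe, while the highest of its 3 probes gave 0.09. 4930447C04Rik, also named Six6os1, a further central element gene, fell by 1.62, with 3 of its 4 probes called. Not every part of the complex moved. Sycp3, a lateral element protein, read 4.04, 4.02 and 4.01 at E15.5 and 3.87, 4.02 and 4.18 at E17.5, with overlapping groups and a change of 0.07 (SE 0.14, adjusted p = 0.744). Sycp1 gave -0.74 with the run term (adjusted p = 0.00119) and -0.27 without it (adjusted p = 0.371), and Syce1 -0.20. The only riser was Sycp2l, an oocyte homologue of Sycp2, at least 2.79-fold higher at E17.5 (adjusted p = 0.0196) and not well above background on any E15.5 array. Without E17.5 replicate 3 the run-term fit called 0 higher and 5 lower.

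Meiotic recombination genes fell more often than they rose. Of 28 measured, 13 fell and 4 rose, with a median of -0.44. Iho1, which with its partners sets up double-strand breaks on the axis, read 0.94, 0.89 and 0.88 at E15.5 and -2.14, -2.13 and -2.24 at E17.5, 2 tight groups that lay far apart, and fell by 2.94 (SE 0.15, adjusted p = 1.05e-06). Dmc1, the meiotic recombinase, read 0.18, 0.07 and 0.01 at E15.5 and -2.45, -2.54 and -2.74 at E17.5 and fell by 2.72 (SE 0.25, adjusted p = 1.78e-05), going on to -4.61, -4.98 and -4.08 at P0. Every E17.5 array was below every E15.5 array for both genes. Spo11, which cuts the DNA, fell by 1.05, and Mei1, needed for those cuts, by 1.11. Rad51ap2 fell by 2.94 and Meiob, a single-strand DNA binder, by 0.76. Of the MutS pair that stabilises crossover intermediates, Msh5 fell by 2.59 and Msh4 by 0.37. Brca2, of recombinational repair, fell by 0.63. Mcmdc2 was lower by 2.58 in the fit but was not well above background at E17.5, so its bound is at least 1.04-fold. In the other direction, the strand exchange partners Psmc3ip and Mnd1, also known as HOP2 and MND1, rose by 0.45 and 0.73, Ccnb1ip1 (HEI10, a crossover factor) by 0.53 and Hsf2bp by 0.75. With arrays scaled by their medians 1 member was called higher and 16 lower. Without E17.5 replicate 3 the run-term fit called 0 higher and 10 lower.

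Meiotic cohesins, rings that hold sister chromatids along the axis, and the proteins that tie telomeres to the nuclear envelope fell where they changed. Of 12 measured, 7 fell and 0 rose, with a median of -0.87. The cohesin subunit gene Stag3 read 3.94, 3.96 and 3.92 at E15.5 and 2.10, 2.04 and 2.27 at E17.5, a gap many times wider than the spread of either group, and fell by 1.79 (SE 0.15, adjusted p = 7.99e-06). Smc1b, another subunit, fell by 0.92. Rec8, the kleisin of the ring, gave -0.94 (adjusted p = 0.078), and -1.04 without the run term (adjusted p = 0.0181). The 3 genes of the complex that caps meiotic telomeres all fell, Majin by 1.59, Terb1 by 0.98 and Terb2 by 0.83. Their envelope partners Kash5 and Sun1 fell by 1.09 and 0.49, although the other probe of Kash5 gave -0.02. Without E17.5 replicate 3 the run-term fit called 0 higher and 6 lower.

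The 250 bases before the annotated start of Stag3 and Smc1b are shown because they are dense in CpG, the dinucleotide that DNA methylation acts on, marked here in capitals. They come from RefSeq (GRCm38.p6) at chr5:138280259-138280508 on the plus strand and chr15:85131958-85132207 on the minus strand, and hold 26 and 25 CpG. The window of M1ap (chr6:82946672-82946921, plus strand), a gene of meiosis I whose fall was among the largest, is shown for its match to CNCCTCAG, the motif bound by STRA8 and its partner MEIOSIN, in capitals and read here on the opposite strand. M1ap itself read 4.96, 4.82 and 4.73 at E15.5 and 1.03, 0.79 and 0.75 at E17.5, and fell by 3.68 (SE 0.23, adjusted p = 2.14e-06).
Stag3: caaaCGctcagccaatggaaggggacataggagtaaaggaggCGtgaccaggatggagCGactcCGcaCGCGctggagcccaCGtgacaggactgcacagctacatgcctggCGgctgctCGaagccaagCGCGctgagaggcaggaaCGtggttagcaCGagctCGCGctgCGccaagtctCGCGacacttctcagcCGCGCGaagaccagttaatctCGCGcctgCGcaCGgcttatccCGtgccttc
Smc1b: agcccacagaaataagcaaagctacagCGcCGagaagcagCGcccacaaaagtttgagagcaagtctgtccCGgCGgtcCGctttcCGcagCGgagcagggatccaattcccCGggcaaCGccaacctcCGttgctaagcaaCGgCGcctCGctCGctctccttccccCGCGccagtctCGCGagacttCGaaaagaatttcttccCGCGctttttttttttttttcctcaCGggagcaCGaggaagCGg
M1ap: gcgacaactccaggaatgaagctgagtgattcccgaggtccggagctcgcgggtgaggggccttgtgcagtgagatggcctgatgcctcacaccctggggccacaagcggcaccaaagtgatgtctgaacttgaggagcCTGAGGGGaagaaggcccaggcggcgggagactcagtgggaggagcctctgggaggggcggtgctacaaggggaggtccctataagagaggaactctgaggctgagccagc

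General germ cell markers did not move as a block. Of 20 measured, 7 rose and 4 fell, against 9.19% and 8.48% of all genes, with a median of -0.02. Ddx4, the germ cell RNA helicase VASA, read 3.83, 3.90 and 3.84 at E15.5 and 3.47, 3.46 and 3.78 at E17.5, and changed by -0.32 (SE 0.17, adjusted p = 0.191). Dazl, a germ cell RNA-binding protein, read 3.29, 3.45 and 3.38 at E15.5 and 3.51, 3.48 and 3.50 at E17.5, with a change of -0.02 (SE 0.16, adjusted p = 0.946). Every E17.5 array lay below every E15.5 array for Ddx4 and above for Dazl, by little, and neither gene was called in both fits. Tex101, a germ cell surface protein, fell by 1.77, and the DAZ-family gene Boll by 1.51. The mean log2 level of the list ran from 1.16 to 1.36 on the E15.5 arrays and from 1.39 to 1.60 on the E17.5 arrays. The log2 of its summed signal overlapped between the stages, at 7.10 to 7.17 and 7.09 to 7.29. Tdrd1, Piwil2, Mael and Mov10l1, among the risers, are counted again in the piRNA list below.

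**Figure D2:**
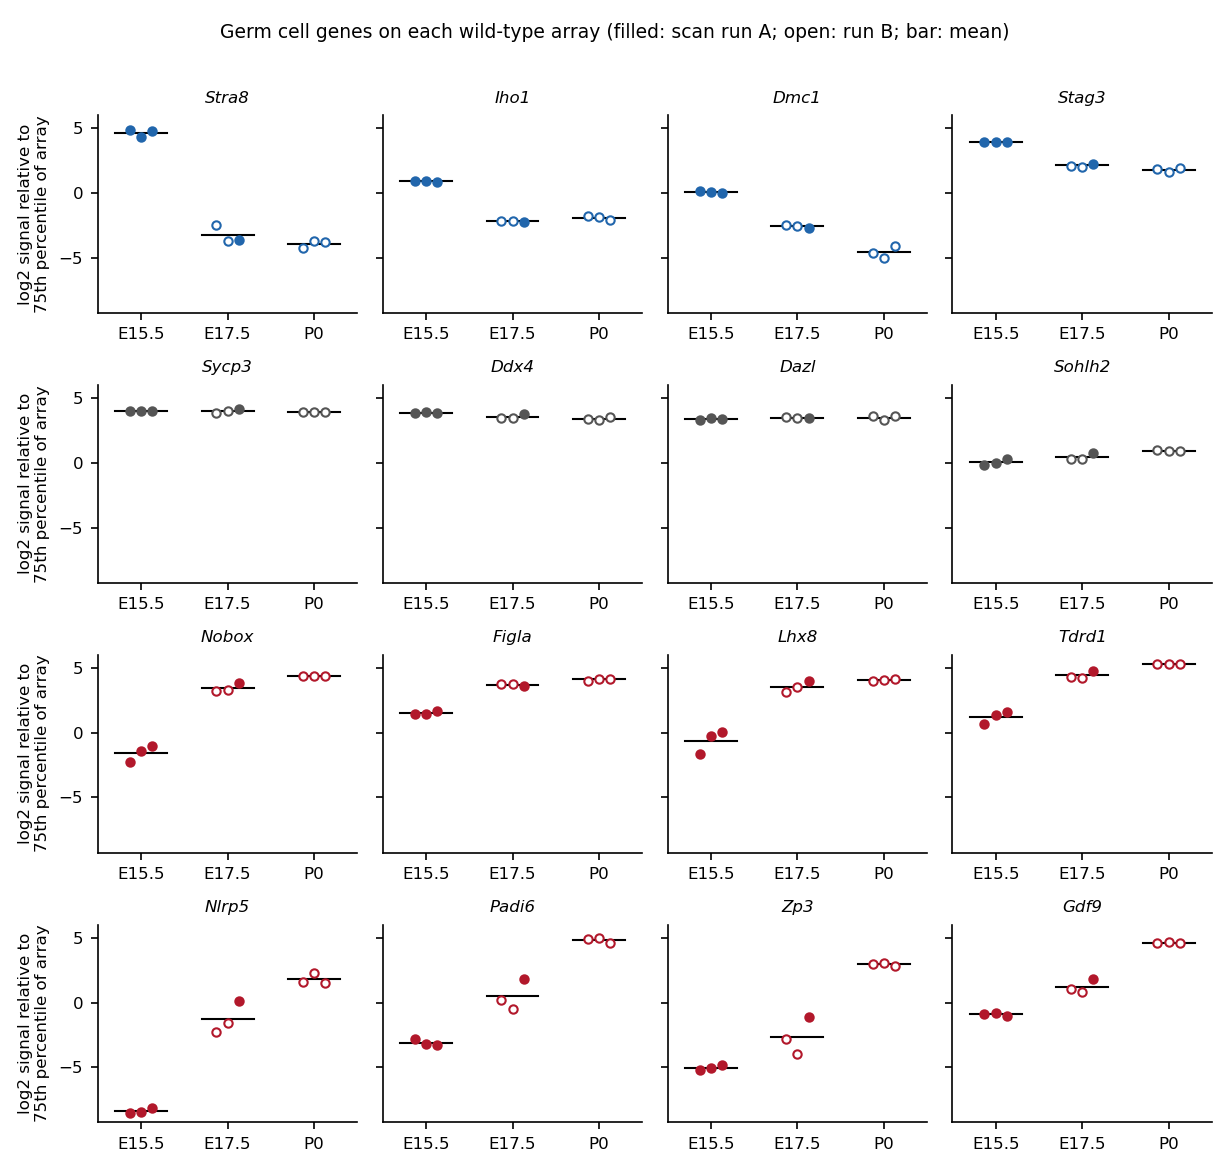
Log2 signal relative to the array's 75th percentile of 16 germ cell genes on each WT array at E15.5, E17.5 and P0. Points are arrays, filled for run A and open for run B, and bars are means. Stra8, Iho1, Dmc1 and Stag3 (blue) dropped between E15.5 and E17.5, Sycp3, Ddx4, Dazl and Sohlh2 (grey) were not called, and the 8 genes in red rose, with E17.5 replicate 3 highest for Nlrp5, Padi6, Zp3 and Gdf9.

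Most genes of the piRNA pathway rose. The pathway uses small RNAs bound to PIWI proteins, with tudor-domain proteins as scaffolds of germ granules, to silence transposons. Of 20 measured, 14 rose and 0 fell, against 9.19% and 8.48% of all genes, and the median change was 1.31. Tdrd9, a helicase of the pathway, read -1.25, 0.23 and 0.59 at E15.5 and 3.20, 3.39 and 3.57 at E17.5. E15.5 replicate 1 was the lowest, and no E17.5 array came near the E15.5 arrays; the change was 3.47 (SE 0.45, adjusted p = 0.000204). Tdrd1 read 0.70, 1.40 and 1.59 at E15.5 and 4.28, 4.26 and 4.73 at E17.5 and rose by 3.12 (adjusted p = 8.41e-05). Among the PIWI genes, Piwil2 rose by 2.18, Piwil4 by 1.85 and Piwil1 by 2.62, the last being well above background on 2 of 3 E15.5 arrays. Henmt1, which methylates the ends of piRNAs, rose by 2.16, Gtsf1 by 1.67, Exd1 by 1.80, Tdrd5 by 1.36, Pld6 by 1.25, Mov10l1 by 1.20 and Mael by 0.74. Rnf17 gave -1.02 with the run term (adjusted p = 0.0058) and -0.33 without it. Tex19.1 and Tex19.2, which restrain transposons in germ cells, rose by 0.82 and 0.69. With E17.5 replicate 3 left out, 4 of the pathway genes were called higher and 2 lower with the run term.

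Several oocyte transcription factors rose steeply. Of 10 measured list members, 5 rose and 0 fell, with a median of 1.92. The risers include Tcl1, which is not itself a transcription factor gene. Nobox, a homeobox factor required for oocyte genes, read -2.27, -1.42 and -1.02 at E15.5 and 3.19, 3.30 and 3.83 at E17.5, and changed by 4.89 (SE 0.46, adjusted p = 2.03e-05). Lhx8, a LIM homeobox factor, read -1.63, -0.27 and 0.08 at E15.5 and 3.13, 3.52 and 4.02 at E17.5, and changed by 4.31 (SE 0.48, adjusted p = 7.7e-05). For both genes E15.5 replicate 1 was the lowest array and the stages did not overlap. Figla, the bHLH factor that switches on zona genes, read 1.42, 1.41 and 1.68 at E15.5 and 3.75, 3.75 and 3.64 at E17.5, a smaller rise of 1.97 (SE 0.25, adjusted p = 0.000196). Foxo3, which holds primordial follicles dormant, rose by 2.37, although its other probe gave 0.36. Tcl1, a co-activator of AKT, rose by 3.89. Sohlh2 gave 0.46 (adjusted p = 0.0747) and Taf4b -0.36 (adjusted p = 0.262, or 0.0306 without the run term). Sohlh1 was not among the genes tested. With E17.5 replicate 3 left out, 4 were called higher with the run term.

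Several genes for the zona pellucida and other oocyte surface or secreted proteins rose. Of 12 measured, 7 rose and 0 fell, with a median of 1.27, or 1.09 with the 5 members not well above background at 1 stage set to their bound. Members not well above background at E15.5 were tested only because another group was, which leans these counts towards rises. Zp2, a zona glycoprotein that binds sperm, read -7.93, -8.18 and -7.97 at E15.5 and -2.95, -3.43 and -1.42 at E17.5. It was not well above background on any E15.5 array and was at least 12.3-fold higher at E17.5 (adjusted p = 0.000213). Zp3 read -5.18, -5.08 and -4.81 at E15.5 and -2.80, -4.01 and -1.13 at E17.5, a rise of 3.20 (SE 0.51, adjusted p = 0.000874), and stood at 2.99, 3.04 and 2.79 at P0. Zp1 read -5.99, -5.93 and -6.27 at E15.5 and -5.27, -5.52 and -3.04 at E17.5. Only E17.5 replicate 3 stood clearly apart, and the estimate was 3.11 with the run term (adjusted p = 0.000681) but 1.45 without it (adjusted p = 0.162). Replicate 3 was likewise the highest E17.5 array for Zp2, Zp3, Gdf9 and Astl, the last not being called without the run term. Gdf9, an oocyte growth factor that acts on granulosa cells, read -0.87, -0.79 and -1.04 at E15.5 and 1.06, 0.82 and 1.81 at E17.5 and rose by 2.18, then reached 4.61, 4.71 and 4.57 at P0. Its partner Bmp15 gave 1.11 (adjusted p = 0.294) and was well above background on 2 of the 6 arrays, both at E17.5. Gja4, the connexin of oocyte gap junctions, rose by 1.34, the egg membrane gene Cd9 by 0.89 and Izumo1r, the sperm receptor JUNO, by 1.19. Oosp1 was not well above background at either stage. With E17.5 replicate 3 left out, 3 were called higher with the run term.

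Maternal effect genes, whose products are stored in the oocyte for the embryo, mostly rose. Of 31 measured, 22 rose and 0 fell, with a median of 2.85, or 2.23 with the 12 members not well above background at 1 stage set to their bound. Members not well above background at E15.5 were tested only because another group was. They could hardly fall, so the filter leans these counts towards rises. Nlrp5 (MATER), of the subcortical maternal complex, was probed on chromosome 7, 24209071 to 24211595 (mm9) and read -8.56, -8.45 and -8.11 at E15.5 and -2.26, -1.58 and 0.14 at E17.5. It was not well above background at E15.5 and at least 31.7-fold higher at E17.5 (adjusted p = 5.43e-06); replicate 3 was the highest E17.5 array. Dppa3 (STELLA), which protects maternal chromatin, read -1.53, -0.94 and -0.59 at E15.5 and 4.72, 4.79 and 5.25 at E17.5 and rose by 5.81 (SE 0.50, adjusted p = 1.23e-05). Padi6, needed for the cytoplasmic lattices, read -2.84, -3.22 and -3.27 at E15.5 and 0.17, -0.53 and 1.79 at E17.5 and rose by 4.12. All 3 genes separated the stages without overlap. Ooep and Khdc3, further members of the subcortical complex, rose by 3.78 and 3.71 (Khdc3 well above background on 2 of 3 E15.5 arrays), while their partner Tle6 gave 0.42 (adjusted p = 0.0688). The linker histone H1f8 rose by 3.89, Npm2 by 1.24, Nlrp14 by 3.43 and Nlrp4f by 6.15, the last 2 well above background on 2 of 3 E15.5 arrays. Btg4, which drives maternal mRNA decay, and Wee2, a meiotic arrest kinase, were at least 4.52-fold and 2.87-fold higher. Zar1 gave 0.66 and Mos 2.61 (adjusted p = 0.3 and 0.118). Without E17.5 replicate 3, 6 members were called higher with the run term (median 1.78), and 21 without it (median 2.60). Several Nlrp4 and Oog family members are close paralogues, so a probe may read more than 1 of them.

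The same stretch of the Zp3 and Padi6 genes, at chr5:135979855-135980104 (plus strand) and chr4:140742644-140742893 (minus strand) of GRCm38.p6, is shown to set these oocyte genes beside the meiotic ones. Capitals mark each E-box (CANNTG on either strand, the site bound by FIGLA with an E protein), of which they hold 3 and 2, with 5 and 1 CpG.
Zp3: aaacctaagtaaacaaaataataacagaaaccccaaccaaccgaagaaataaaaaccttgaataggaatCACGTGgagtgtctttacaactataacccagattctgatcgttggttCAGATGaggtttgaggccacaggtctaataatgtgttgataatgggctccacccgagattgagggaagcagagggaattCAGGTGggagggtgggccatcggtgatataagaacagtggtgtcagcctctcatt
Padi6: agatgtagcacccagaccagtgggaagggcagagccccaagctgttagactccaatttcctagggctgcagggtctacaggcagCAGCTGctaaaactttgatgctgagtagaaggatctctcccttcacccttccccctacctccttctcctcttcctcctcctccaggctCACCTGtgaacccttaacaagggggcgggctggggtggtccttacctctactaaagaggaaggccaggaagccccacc

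Promoter content over larger sets of genes is given as a description, without a test. RefSeq gave a single window for 10441 of the tested genes, and motifs were searched on both strands of the 250 bases before the start. Among all of these, 65.5% held 10 or more CpG, 59.0% an E-box and 7.2% CNCCTCAG. Among the 160 windows of genes that rose by a fitted 4-fold or more, genes with only a bound included, 25.0% held 10 or more CpG and 81.9% an E-box. Among the 53 windows of genes that fell as far, the shares were 39.6% and 62.3%, so few CpG were not particular to the risers. For genes that rose by any amount the shares were 62.8% and 65.6%, and for genes that fell by any amount 69.9% and 54.1%. Within CpG-poor windows the gap was smaller: 71.2% of all windows with under 10 CpG held an E-box, against 81.7% of the 120 such windows of genes that rose by 4-fold or more. Of 18 maternal effect windows, 1 held 10 or more CpG, whereas 6 of 7 cohesin and telomere windows, 7 of 8 synaptonemal and axis windows and 15 of 19 recombination windows did. CNCCTCAG was found in 10.1% of windows of genes that fell and in 5.8% of those that rose. The NOBOX element TAATTG was in 4.6% of all windows, 4.9% of those of genes that rose, 5.6% of those that rose and 15.1% of those that fell by 4-fold or more, and 4 of 18 maternal effect windows. The E2F core TCCCGC was in 27.4% of all windows, 27.1% of those of genes that rose and 12.5% of those that rose by 4-fold or more.

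**Figure D3:**
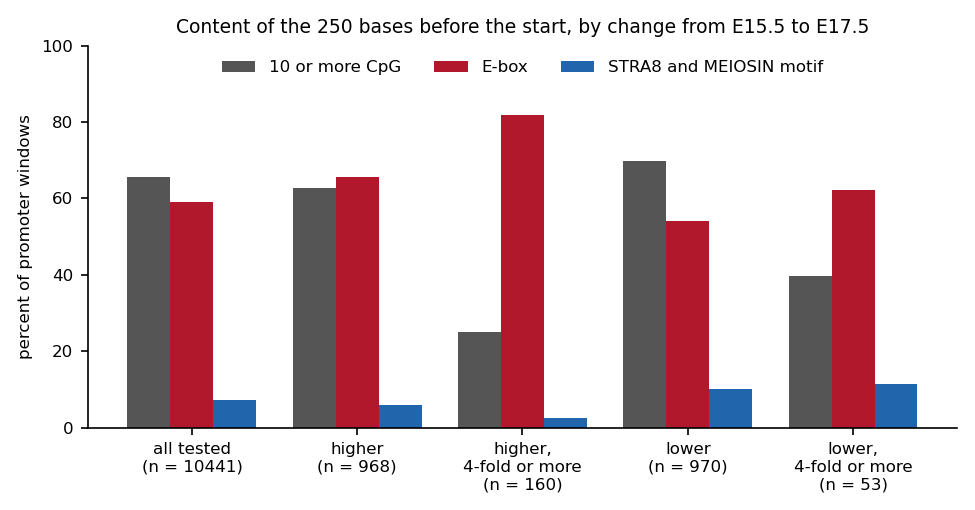
Percent of single RefSeq promoter windows (250 bases before the start) with 10 or more CpG, an E-box, or the STRA8 and MEIOSIN motif, for all tested genes and for those higher or lower at E17.5 in both fits. Bars carry no error. Among genes that rose by 4-fold or more 25.0% of windows were CpG-dense, and among genes that fell as far 39.6%, against 65.5% of all tested.

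Elavl2 itself rose in WT. Its probe (mm9, chromosome 4, 90918411 to 90918470) read 1.97, 2.08 and 2.28 at E15.5 and 3.58, 3.60 and 3.36 at E17.5, with no overlap, a change of 1.09 (SE 0.15, adjusted p = 0.00032), and 4.50, 4.59 and 4.48 at P0. Its paralogue Elavl3 went the other way, reading -0.70, -0.76 and -0.90 at E15.5 and -3.98, -3.88 and -4.67 at E17.5, a fall of 3.47 (SE 0.24, adjusted p = 3.27e-06). Elavl4 fell by 0.58, and the widely expressed Elavl1 gave -0.21 (adjusted p = 0.2). Of 23 measured genes for germ cell RNA-binding and translation factors, 6 rose and 2 fell, against 9.19% and 8.48% of all genes. Ybx2, which packages stored mRNA, rose by 1.86, Lsm14b, of RNA granules, by 1.13, and Cpeb1, which controls cytoplasmic polyadenylation, by 0.99.

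Of 18 genes of KIT, PI3K signalling and follicle dormancy, 3 rose and 0 fell, against 9.19% and 8.48% of all genes. Kit, the oocyte receptor tyrosine kinase, read -0.58, -0.70 and -0.28 at E15.5 and 1.82, 1.84 and 2.23 at E17.5, clear of all E15.5 arrays, and rose by 2.44 (SE 0.32, adjusted p = 0.000253). Its ligand gene Kitl, made by the supporting cells, read 3.37, 3.37 and 3.19 at E15.5 and 2.90, 3.03 and 2.91 at E17.5. The stages did not overlap, but the change was -0.35 (SE 0.15, adjusted p = 0.109), and -0.37 without the run term (adjusted p = 0.0375). Of 21 genes marking primordial germ cells or pluripotency, 4 went up in both fits and 0 down, and the risers were Kit, Dppa3, Dppa4 (1.57) and Zfp42 (0.56). Pou5f1 (OCT4) read -3.33, -3.84 and -3.03 at E15.5 and -3.36, -3.87 and -2.22 at E17.5, with overlapping groups and a change of 0.68 (SE 0.53, adjusted p = 0.377), and Lin28a gave 1.22 (adjusted p = 0.146).

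Pregranulosa genes that changed mostly fell. Of 22 measured, 6 fell and 1 rose, against 8.48% and 9.19% of all genes, with a median of -0.21. Fst, the activin antagonist follistatin, read 2.82, 2.69 and 2.66 at E15.5 and 1.60, 1.47 and 1.01 at E17.5, without overlap, and fell by 1.50 (SE 0.20, adjusted p = 0.000264). The ligand gene Bmp2 fell by 1.03, the homeobox genes Lhx9 and Msx2 by 0.88 and 0.81, and Wnt4 by 0.44. Foxl2, the forkhead factor that maintains granulosa identity, read -2.79, -2.70 and -2.59 at E15.5 and -2.48, -2.47 and -2.27 at E17.5. All E17.5 arrays were slightly higher, but the change of 0.23 (SE 0.14, adjusted p = 0.248) did not pass the test. Rspo1 gave -0.19, Wt1 -0.13, Nr5a1 -0.14, Lgr5 0.19 and Amhr2 -0.12, with none called with the run term. Gata4 was the riser, at 0.62, although its other probe gave 0.08. Without E17.5 replicate 3, 1 member was called lower.

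Some genes of follicular granulosa cells rose. Of 15 measured, 6 rose and 0 fell, against 9.19% and 8.48% of all genes, with a median of 0.50. With arrays scaled by their medians 4 were higher and 3 lower. Slc18a2, a monoamine transporter gene, read -3.10, -2.48 and -2.38 at E15.5 and -0.05, -0.09 and -0.19 at E17.5, well separated, and rose by 2.26 (SE 0.22, adjusted p = 2.97e-05). The estrogen receptor gene Esr2 rose by 1.62, the nuclear receptor gene Nr5a2 by 1.27 and the aromatase gene Cyp19a1 by 1.20. The inhibin subunit gene Inha rose by 0.47 and Foxo1 by 0.50. Amh gave 0.70 and was not called without the run term (adjusted p = 0.105). Fshr, the FSH receptor gene, was well above background on 1 array of each stage. With E17.5 replicate 3 left out, 2 were called higher with the run term.

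Signalling genes changed in both directions. Of 25 WNT genes, 3 rose and 5 fell, against 9.19% and 8.48% of all genes. Rspo2, a WNT enhancer, read -3.32, -3.25 and -3.11 at E15.5 and -0.90, -0.85 and -0.23 at E17.5, with replicate 3 highest and no overlap, and rose by 2.59 (SE 0.27, adjusted p = 5.14e-05). The WNT inhibitor Dkk1 fell by 2.49, being well above background on 2 of 3 E17.5 arrays, the WNT target Sp5 fell by 0.88 and the ligand gene Wnt5a by 0.64. Axin2, another WNT target, gave 0.28 with the run term and 0.65 without it (adjusted p = 0.359 and 0.0406). Of 28 TGF-beta and BMP genes, 2 rose and 5 fell. Id1, a BMP target, rose by 1.21 (adjusted p = 0.000454), while Smad5, which carries BMP signals, fell by 0.38 and the decoy receptor gene Bambi by 0.45. Of 19 Notch genes, 2 rose and 1 fell. In each of the WNT, TGF-beta and BMP, and Notch lists the share that rose lay near that of all genes. Jag2, a Notch ligand, rose by 2.13. Of the Notch targets, Hes1 rose by 0.55 and Hes5 fell by 0.79.

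**Figure D4:**
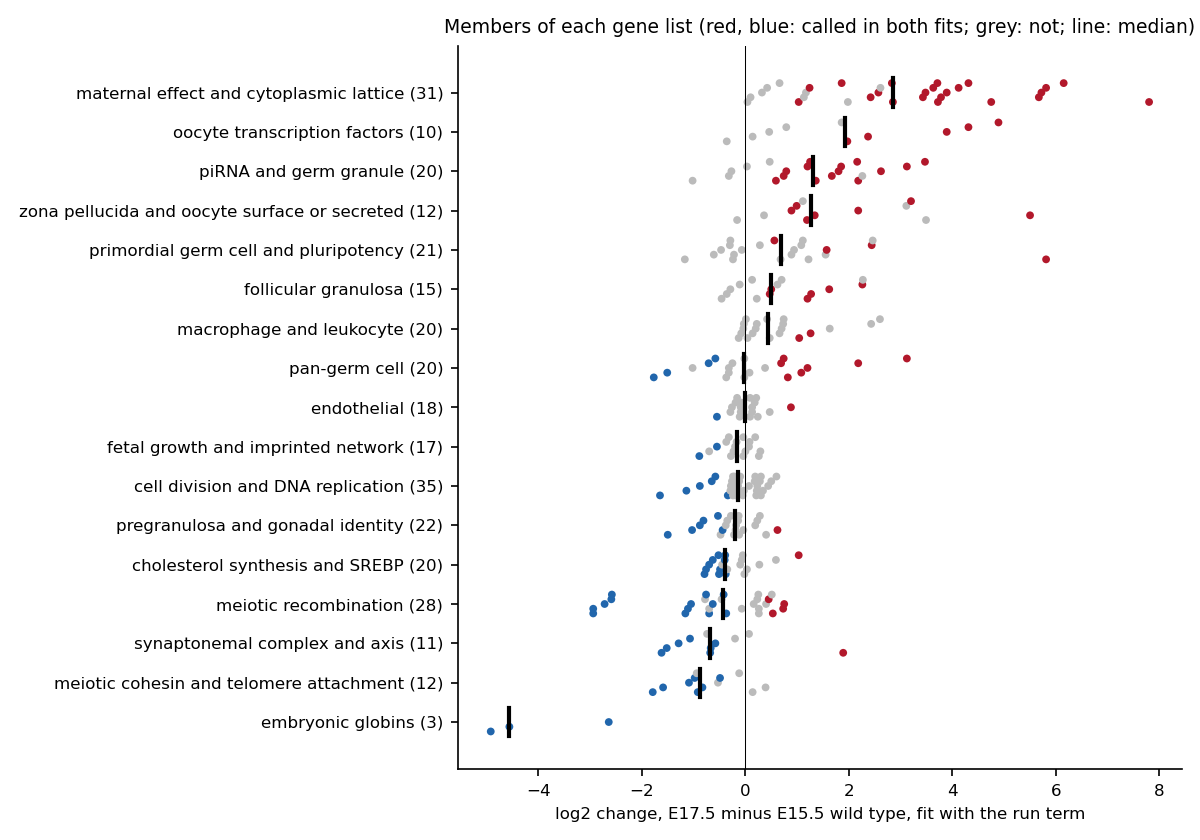
Log2 change from E15.5 to E17.5 in WT (fit with the run term) of each measured member of 17 gene lists. Points are genes, red or blue where higher or lower in both fits and grey otherwise, vertical lines are list medians, and numbers in brackets count measured members. Genes not well above background at 1 stage are drawn at their fitted change. Maternal effect genes have a median of 2.85, while cohesin and telomere genes centre on -0.87 and endothelial genes on 0.00.

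Of 35 cell division and replication genes, 6 fell and 0 rose, against 8.48% and 9.19% of all genes. Their median was -0.14, which turned to 0.21 without E17.5 replicate 3. The S-phase cyclin gene Ccne2 fell by 1.65, the topoisomerase gene Top2a by 1.14 and the replication gene Cdc45 by 0.65. Bub1, of the spindle checkpoint, fell by 0.88 at its brightest probe, but its other probe was called higher. Mki67, the proliferation marker Ki-67, read 3.48, 3.29 and 3.19 at E15.5 and 3.37, 2.78 and 2.96 at E17.5, with overlapping groups and a change of -0.03 (SE 0.38, adjusted p = 0.972). Of 17 imprinted and fetal growth genes, 2 fell and 0 rose, against 8.48% and 9.19% of all genes. The 2 that fell were the cell-cycle inhibitor Cdkn1c, by 0.89, and Mest, by 0.55. Igf2 read 6.36, 6.30 and 6.28 at E15.5 and 5.82, 5.97 and 5.91 at E17.5; the stages did not overlap, and the change was -0.37 (SE 0.14, adjusted p = 0.0605). Hmga2, a chromatin protein of fetal cells and a target of the let-7 miRNA, fell by 1.47 (adjusted p = 4.04e-05), while its relative Hmga1 rose by 0.74.

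Many cholesterol synthesis genes fell by small amounts. Of 20 measured, 10 fell and 1 rose, with a median of -0.39. Msmo1 read 3.13, 3.02 and 2.91 at E15.5 and 2.35, 2.51 and 2.44 at E17.5, without overlap, and fell by 0.63 (SE 0.12, adjusted p = 0.0024). Idi1 fell by 0.70, Cyp51 by 0.51, Mvk by 0.52 and Dhcr7 by 0.49. Fdft1, which commits the pathway to sterols, was the riser, at 1.03. Without E17.5 replicate 3, 1 member was called lower with the run term, and 11 without it.

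Of 33 genes of the BCL2 family, p53 and the DNA damage checkpoint, 4 rose and 5 fell, against 9.19% and 8.48% of all genes. Trp63, whose oocyte isoform guards against DNA damage, read -3.95, -3.87 and -3.65 at E15.5 and 0.85, 0.91 and 1.34 at E17.5, stages far apart, and rose by 4.61 (SE 0.46, adjusted p = 3.21e-05); its dimmer probe gave 1.27. Perp, a p63 target, rose by 1.39, and the pro-death genes Bid and Bax by 0.69 and 0.56. The checkpoint kinase gene Atr, which acts on unsynapsed meiotic chromosomes, read 5.42, 5.41 and 5.32 at E15.5 and 4.22, 4.17 and 4.26 at E17.5, without overlap, and fell by 1.17 (SE 0.13, adjusted p = 9.39e-05), with 3 of its 4 probes called. Atm fell by 0.42 and the stress gene Sesn2 by 0.76, although its other probe gave 0.01.

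Embryonic globins, made by the first wave of red cells from the yolk sac, fell in all 3 measured members. Hbb-y read 2.43, 1.89 and 0.74 at E15.5 and -3.03, -3.08 and -3.75 at E17.5 and changed by -4.56 (SE 0.68, adjusted p = 0.000538). Hba-x read 0.73, 0.09 and -1.02 at E15.5 and -4.57, -4.24 and -5.74 at E17.5 and changed by -4.92 (SE 0.64, adjusted p = 0.00022). Hbb-bh1 read -0.35, -0.67 and -1.87 at E15.5 and -4.55, -3.87 and -4.49 at E17.5 and changed by -2.64 (SE 0.84, adjusted p = 0.0348). In each gene every E17.5 array was below every E15.5 array, with E15.5 replicate 3 the lowest of its group. With E17.5 replicate 3 left out, 1 of the 3 was called lower with the run term. The adult-type globin gene Hbb-bt read 8.01, 7.88 and 8.08 at E15.5 and 7.79, 7.62 and 7.44 at E17.5, with every E17.5 array lower and a change of -0.25 (SE 0.39, adjusted p = 0.683). Of 18 adult globin and red cell genes, 1 rose and 0 fell. Their levels differed between arrays of 1 stage: the list's mean log2 level was 1.30, -0.02 and 0.21 at E15.5 and 1.12, -0.48 and -1.41 at E17.5. Hemgn, of red cell precursors, read 1.52, -1.04 and -0.88 at E15.5 and 1.11, -2.21 and -5.64 at E17.5, with overlapping groups. The part of blood content in the fall of the embryonic globins was not tested. Globin genes are close paralogues, and their probes may share signal.

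**Figure D5:**
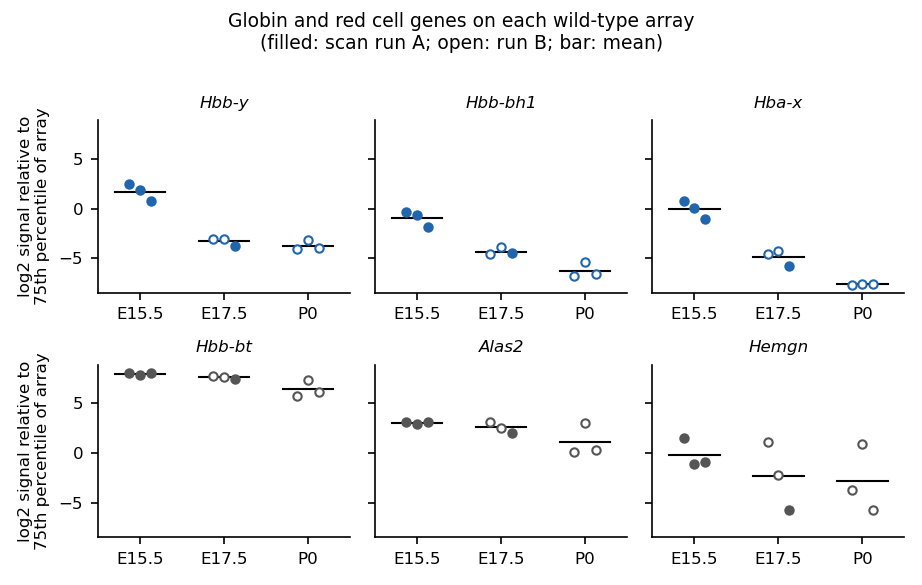
Log2 signal relative to the array's 75th percentile of 3 embryonic globins (blue), and of the adult globin Hbb-bt, the haem enzyme gene Alas2 and Hemgn (grey), on each WT array at E15.5, E17.5 and P0. Points are arrays, filled for run A and open for run B, and bars are means. All 3 embryonic globins drop by E17.5, whereas Hbb-bt stays between 7.44 and 8.08 over both fetal stages and Hemgn scatters widely.

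Markers of other cell types were followed on the same arrays, and their counts are read against 9.19% higher and 8.48% lower over all genes. Among 18 endothelial markers 1 rose and 1 fell (median 0.00), and the list's mean level was 0.13 to 0.17 at E15.5 and 0.18 to 0.25 at E17.5. Among 20 macrophage and leukocyte markers 2 rose and 0 fell (median 0.44), with Ptprc, the pan-leukocyte antigen CD45, up by 1.26. The defining macrophage genes Csf1r and Adgre1 gave 0.42 and 0.22 (adjusted p = 0.0713 and 0.357, or 0.0297 and 0.118 without the run term). Lyz1 and Lyz2, lysozyme genes of myeloid cells, gave 2.60 and 2.43 with the run term (adjusted p = 0.0135 and 0.0153) and were not called without it. Of 4 liver genes, Afp, Alb and Apoh fell, by 1.89 for Afp, from levels that were low already; Alb was well above background on 2 E15.5 arrays and no E17.5 array, a fall of at least 1.75-fold. Of 11 Sertoli genes 2 rose and 1 fell, and the testis factor gene Dmrt1 was not among the genes tested. The part of these cells in the changes above was not tested.

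Outside the lists, the 15 largest fitted rises held Trim61, at least 51.4-fold, and Agr3, a protein disulfide isomerase gene, at least 59.7-fold, both not well above background at E15.5. Pdzk1, a scaffold protein gene, read -5.93, -5.92 and -5.12 at E15.5 and 1.18, 1.15 and 1.85 at E17.5, being well above background on 1 E15.5 array, and changed by 6.98 (SE 0.52, adjusted p = 4.48e-06). Ccno, which encodes an atypical cyclin, read -2.72, -1.39 and -1.03 at E15.5 and 4.11, 4.25 and 4.83 at E17.5 and rose by 6.13. Both separated the stages on every array. The thioesterase gene Olah and the F-box genes Fbxw18 and Fbxw14 were at least 26.7-, 29.5- and 11-fold higher. Pramel13 rose by 6.02. The ion transport regulator Fxyd4 was at least 38.2-fold higher, with a wide SE of 1.62 (adjusted p = 0.0177). Its P0 WT arrays scattered from -5.40 to 0.34. Among the 15 largest falls, Myl7, a myosin light chain of heart atria, read 1.13, 0.78 and 0.75 at E15.5 and -2.42, -2.33 and -2.59 at E17.5 and fell by 3.15 (SE 0.33, adjusted p = 4.85e-05). Hnf4a, a nuclear receptor gene of liver, gut and kidney, was at least 3.03-fold lower, and the early response gene Egr4 fell by 3.11, being well above background on 1 of 3 E17.5 arrays. A further 5 of the 15 were olfactory receptor genes, 4 of them not well above background at E17.5.

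The WT change was set against that of the knockout ovary over the same days, in the same model. For 59 genes (0.306%) the change differed, 52 of them changing more upward in WT, and 11 genes were called without the run term; 2524 had an unadjusted p under 0.05. By limma the count fell to 0 without E15.5 WT 1, E15.5 KO 2 or E17.5 WT 1 (1877, 2397 and 2205 genes at an unadjusted p under 0.05), and rose to 264 without E17.5 KO 1. Terb2 changed by -0.83 in WT and -1.93 in KO, a difference of 1.10 (SE 0.16, adjusted p = 0.03). In KO it read -0.31, -0.15 and -0.21 at E15.5 and -2.21, -2.25 and -2.17 at E17.5. Syce1 changed by -0.20 in WT and -1.23 in KO, a difference of 1.04 (SE 0.19, adjusted p = 0.0484). Elavl2 itself read 1.88, 2.02 and 2.11 in KO at E15.5 and 2.98, 2.77 and 2.19 at E17.5; with the deleted stretch not given, its probe does not check the genotype. For Elavl2 the changes were 1.09 and 0.34, and the difference was 0.76 (SE 0.17, adjusted p = 0.0994). Of genes with large WT rises, Dppa3 gave 5.81 in WT and 4.12 in KO, a difference of 1.69 (SE 0.58, adjusted p = 0.247), and Nobox 4.89 and 3.21, a difference of 1.68 (SE 0.53, adjusted p = 0.219). Neither difference passed the test. The medians over the maternal effect list were 2.85 in WT and 1.30 in KO, with 0 of its genes called for a difference. For Stra8 the changes were -7.70 and -6.62.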

How the data were processed

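Each deposited scanner file gives the processed intensity of every spot, after background subtraction in Agilent Feature Extraction (10.7.3.1 per the file headers, 9.5 per the submitters' processing notes; not settled here), on the Agilent mouse 4x44K design 14868 with mm9 positions. The deposited series matrix holds log2 values that match those intensities on a log2 scale, up to 1 constant per array, and served as an alternative.

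From the intensity, log2 was taken and each array's 75th percentile subtracted, without control and outlier-flagged spots (51 to 109 per array; no spot was saturated). A probe was kept if some group had it well above background on each of its 3 arrays (29203 of 41174), and the brightest stood for a gene. RefSeq (GRCm38.p6) named 28553 probes, and 12621 kept the file's name. limma 3.58.1 in R 4.3.3 (lmFit, eBayes) was fitted over 18 arrays with 6 groups and the scan run (11 residual degrees of freedom), and again without the run. Arrays scanned on the same day, per the file headers, form a run. "At least N-fold" sets the brighter group against the dimmer group's background limit. The code was tested on simulated data.

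Members, 44 gene lists and the rule for named genes were chosen with earlier results of these data known. The rule took, among genes with a symbol other than a clone name, called in both fits, without overlap and well above background on all arrays of 1 of both groups, the 15 largest rises and falls and up to 5 per list by adjusted p, plus fixed genes and the 10 smallest adjusted p for the WT and KO difference; other list members were added after their values were seen. A few list members are counted but not reported here by name. Alternatives are in the closing section. Figures used matplotlib 3.10.9.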

Additional observations from a re-analysis of the deposited data

Results flagged for a closer look

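The change from E15.5 to E17.5 differed between WT and knockout, by the model's test of the difference, for 12 of the genes examined by name. The differences below are the WT change minus the knockout change in log2 units. Among meiotic genes it was 1.10 for Terb2 (adjusted p = 0.03) and 1.04 for Syce1 (adjusted p = 0.0484). For the pluripotency gene Esrrb it was 2.14, with the gene well above background on 1 WT array at E15.5 and 1 at E17.5. For Paip2b, which restrains translation through the poly(A)-binding protein, it was 0.56, from a WT change of -0.38 and a knockout change of -0.94. For the myosin gene Myh14 it was 1.32, for the lipin gene Lpin3 0.82 and for Srbd1 1.02. The metabolic hormone gene Fgf21 gave 2.82, but was not well above background on any WT array of either day. The RIKEN transcripts 1700001L05Rik, whose probes were called in opposite directions for stage, and 1700031F05Rik gave 1.00 and 2.14. Of the olfactory receptor genes, Olfr922 gave -4.50 and Olfr1030 -1.38, Olfr922 being well above background on 2 WT arrays, both at E15.5, and Olfr1030 being highest on E17.5 WT replicate 3. All 12 were called in the fit with the run term, in which leaving out 1 of 3 different arrays ended every such call.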

How the results depend on the processing

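The count of genes called between E15.5 and E17.5 (5092) kept within 1.5 times under quantile, normexp, array-median and matrix values, both filters, the mean of probes and array weights. It was 2711 with E17.5 replicate 3 as the only E17.5 array, 1690 with a 2-fold minimum, and 1049 to 5544 when 1 array was left out, the lowest without E17.5 WT replicate 3. Of alternatives chosen after seeing the data, slide as a random block without the run term gave 2694 calls and slide 3 with run terms 839. With the replicate number as a block, 3473 genes were called (1837 higher, 1636 lower); same-numbered arrays did not deviate together (r = 0.147, 0.011 and -0.05), so the numbers were not taken as pairs. The count of genes whose change differed between WT and knockout (59) was 11 without the run term, 14 with run A only, 0 with run B only (1821 at an unadjusted p under 0.05, by limma), 100 with normexp, 19 with median scaling, 5 without a filter, 10 with slide as a random block and 10 with the replicate block. It was 0 to 264 when 1 array was left out. Among alternatives added later it was 0 with slide as a random block and no run term (1042 at an unadjusted p under 0.05), 5 without both E17.5 replicate 3 arrays, 9 with a slide 3 term, 11 with slide 3 and run terms and 39 without slide 3. Among named genes called with the run term, the sign turned under some alternative for 4; uncalled genes near 0, such as Dazl, also changed sign. The log2 change of Olfr1030 was -0.132 with run B only, without both replicate 3 arrays and without slide 3, and -0.028 with a slide 3 term. The log2 change of Rdh10 was -0.158 with the mean of probes. With slide 3 and run terms the log2 change of Wnt7a was -0.037 and the log2 change of Apoa1 -0.025. The causes were not tested. Dim probes limit what can be measured: a gene not well above background on 1 side has only a bound.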

Other observations

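Of 26 measured matrix genes, against 9.19% and 8.48% of all genes, 4 rose and 0 fell: Mfap5, of elastic microfibrils, by 2.36 (well above background on 1 E15.5 array), the elastin gene Eln by 0.93, Ogn by 0.97 and Col6a1 by 0.53. Of 13 surface epithelium genes 3 rose and 0 fell, the risers being mesothelin (Msln), which read -2.27, -2.15 and -2.12 at E15.5 and -0.66, -0.52 and -0.37 at E17.5, the E-cadherin gene Cdh1, up by 1.15, and Gpm6a, up by 0.56 at 1 of 2 probes. Every E17.5 array was above every E15.5 array for these genes.

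Th, the gene of tyrosine hydroxylase, the first enzyme of catecholamine synthesis, read -7.08, -7.12 and -7.72 at E15.5 and -2.67, -2.97 and -1.28 at E17.5 and 0.18, 0.04 and -0.19 at P0. It was not well above background at E15.5 and was at least 15.1-fold higher at E17.5 (adjusted p = 0.000197). Dbh, which acts after it in the same pathway, gave -0.24 (adjusted p = 0.879), and Pnmt 0.51, which was not called without the run term. Dnmt3l, a partner of the de novo DNA methyltransferases, fell by 2.92 and was well above background on 1 E17.5 array, while the hypoxia-induced gene Car9 rose by 1.50 and Bnip3 by 0.78. The hormone receptor genes Vdr and Nr3c2 fell by 0.77 and 0.97, and the hedgehog receptor gene Ptch1 rose by 1.10.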
